A study of Mus musculus with 56 samples.

Results

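The clustered protocadherins are 58 genes for cell-surface adhesion proteins that stand in a row on mouse chromosome 18, with 14 in the Pcdha, 22 in the Pcdhb and 22 in the Pcdhg subcluster. They were taken as the lower or higher H2A.Z peaks whose gene name in the authors' lists is a numbered Pcdha, Pcdhb or Pcdhg gene, together with every H2A.Z peak centred inside the cluster. By gene name there were 33 lower peaks, of 9077 lower peaks in all, and 0 higher peaks, of 318. The cluster ran from 36930285 to 37841873 on GRCm38, from the start of Pcdha1 to the end shared by the last Pcdhg genes, and held 67 of the 61420 peaks of the set. These 67 were the 33 lower peaks and 34 unchanged ones, meaning peaks in neither list.

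The study used CUT&Tag, in which an antibody directs a transposase to the chromatin it recognises, in the mouse embryonic stem cell line RHKI, derived from E14Tg2a, with an HA-Rnaseh1 knock-in that the series describes as inducible. RNase H1 digests the RNA of RNA:DNA hybrids, and the comparison concerns where the histone variant H2A.Z lies once it is induced. H2A.Z was profiled in 4 libraries from cells given doxycycline at 500 ng/ml for 48 hours and in 4 control libraries, all from the same knock-in line in 2i/LIF medium (the base medium NDiff with LIF, FBS at 2%, the MEK inhibitor PD0325901 at 1 µM and the GSK3 inhibitor CHIR-99021 at 3 µM). No clone number is given, and no line without the knock-in was analysed here, so an effect of doxycycline itself and one of Rnaseh1 cannot be told apart. From their names, the lists are taken to compare doxycycline with control. They give each peak a call and a position with no size of change and no value per library. Depth and the spread between libraries are therefore unknown, and all shares below describe peaks, with exact 95% Clopper-Pearson intervals that cover counting alone and treat peaks as independent; no test was made.

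Protocadherins of this cluster mediate contacts between neurons, and the combination that a neuron displays is held to let its branches tell themselves from those of other cells. Each Pcdha and Pcdhg gene is a long variable exon with its own promoter, spliced to constant exons that all genes of the subcluster share, while each Pcdhb gene is a single exon. In mouse neurons most of these promoters are chosen at random, with help from CTCF, cohesin and DNA methylation, and the C-type genes at the end of the Pcdha and Pcdhg subclusters are expressed more evenly. RNA levels of these genes were not analysed here.

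Lower H2A.Z was most frequent at the Pcdhb genes. Of 22 peaks in the Pcdhb subcluster (37264998 to 37521419), 18 were lower, or 81.8% (59.7 to 94.8%). Of 18 peaks in the Pcdha subcluster (36930285 to 37188897), 8 were lower, or 44.4% (21.5 to 69.2%), and of 17 in the Pcdhg subcluster (37661775 to 37841873), 5 were, or 29.4% (10.3 to 56.0%). Over the whole cluster 33 of 67 peaks were lower, or 49.3% (36.8 to 61.8%), against 14.8% of the whole set and 10.9% (9.52 to 12.3%) of the 1970 other peaks of chromosome 18. The higher list, which holds 0.518% of the set, had none of the 67, which allows up to 3 counts. The interval of the Pcdhb share lies above that of the Pcdhg share, while the Pcdha interval overlaps both. Without the Pcdhb subcluster 15 of 45 peaks, 33.3%, were lower. Most peaks of the cluster, 53 of 67, lay at or just downstream of gene starts, where lower peaks were more frequent elsewhere too. The share was 26.3% of peaks centred within 1 kb of either end of a gene. At or just downstream of gene starts on other chromosomes it was 29.5 to 35.2%, by position. The Pcdhg share, whose peaks all lay at or just downstream of gene starts, lies between 26.3 and 35.2%. The share without Pcdhb also counts the 14 peaks away from gene starts, of which 2 were lower. It is therefore not like these shares. In Pcdha, 8 of 14 genes had a lower peak at or just downstream of the start, and 0 of the 4 peaks elsewhere were lower.

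**Figure D1:**
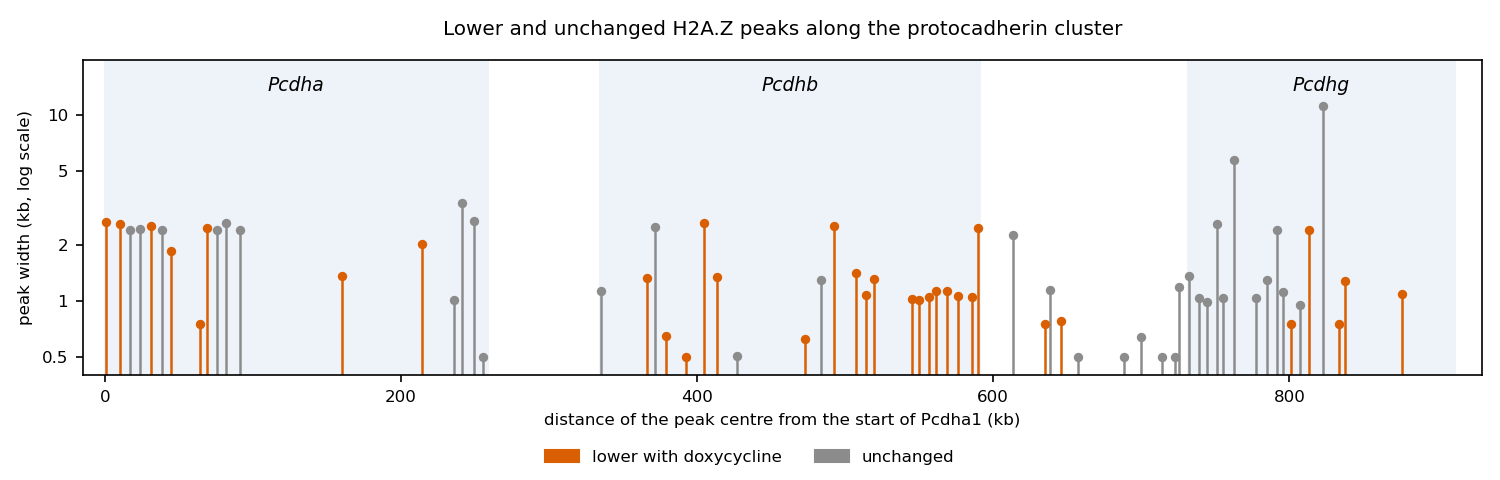
H2A.Z peaks along the protocadherin cluster, placed by the distance of their centre from the start of Pcdha1 (kb) and drawn to the height of their width (kb, log scale), in orange where lower with doxycycline and in grey where unchanged. Shading marks the 3 subclusters; 18 of the 22 peaks in the Pcdhb span are orange, against 8 of 18 in Pcdha and 5 of 17 in Pcdhg.

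The peaks followed the genes closely. At 56 of the 58 genes a peak either covered the gene start, or began no more than 250 bp past it, or was centred within 3 kb downstream of it, and Pcdhgc4 and Pcdhgc5, C-type genes at the end of the cluster, had none. A lower peak lay there at 31 genes, which were 8 of 14 Pcdha, 18 of 22 Pcdhb and 5 of 22 Pcdhg genes. For these 31 peaks the centre measured from the RefSeq gene start equalled the distance to the TSS in the authors' deposited table. At these 31 genes the gene starts used here are therefore those of the authors' annotation, and the starts of the other genes could not be checked in this way. The remaining lower peaks by gene name, at 37564719 to 37565479 and 37575677 to 37576463, were given to Pcdhb22 over 46746 and 57717 bp, and they are described with the interval between the subclusters.

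Peaks took 3 positions against the gene start, a division made after the positions were seen. Start peaks covered the gene start or began within 250 bp past it, and ended within 1500 bp of it. Spanning peaks met the same rule at the start and ran farther along the exon. Downstream peaks began more than 250 bp past the start and were centred within 3 kb of it. Downstream peaks were lower in 18 of 20 cases, 90.0% (68.3 to 98.8%), spanning peaks in 10 of 19, 52.6% (28.9 to 75.6%), and start peaks in 3 of 12, 25.0% (5.49 to 57.2%). A further 2 peaks each reached over several gene starts, with the same allowance of 250 bp, and were unchanged. At protein-coding genes of the other chromosomes, 34.0% (30.1 to 38.1%) of 561 downstream peaks were lower, as were 35.2% (32.4 to 38.0%) of 1123 spanning and 29.5% (28.5 to 30.5%) of 7656 start peaks. The protocadherin interval lay above the other genes' interval for downstream peaks and overlapped it for spanning and start peaks. Position went largely with subcluster, however. Pcdhb held 17 of the 20 downstream peaks, Pcdha 12 of the 19 spanning and Pcdhg 10 of the 12 start peaks. Within Pcdhb, 15 of 17 downstream and 3 of 4 spanning peaks were lower, and the 1 start peak was unchanged. Downstream peaks of Pcdha and Pcdhg, 1 and 2 in number, were all lower. Position and subcluster therefore cannot be told apart.

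**Figure D2:**
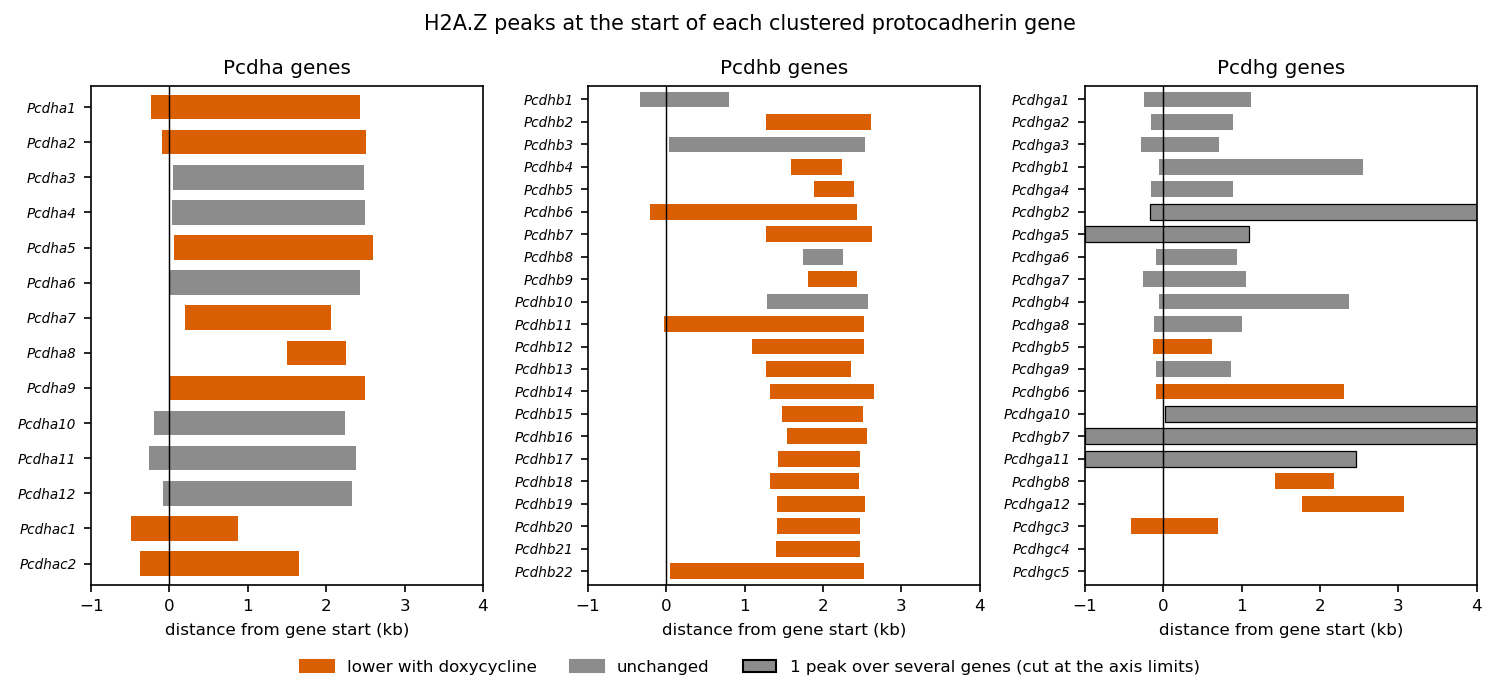
Extent of the H2A.Z peak at each clustered protocadherin gene, in kb from the gene start (vertical line), with genes in chromosomal order from the top and bars in orange where lower with doxycycline and in grey where unchanged. Bars with a black outline are 2 wide peaks that cover several Pcdhg genes. Most Pcdhb bars lie over the same downstream stretch and are orange, Pcdha bars run over the start in both colours, and most Pcdhga bars sit at the start and are grey.

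At the Pcdhb genes, 17 of 22 peaks were downstream peaks and lay wholly within the single exon. Of these, 15 were lower. Their centres stood 1808 to 2140 bp past the gene start (median 1946), their upstream edges at 1096 to 1890 bp and their downstream edges at 2242 to 2648 bp. The same stretch of each gene was thus called in one gene after another, although the genes themselves were 2340 to 5271 bp long. Widths in this group were 501 to 1426 bp, with a median of 1066 bp.

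From Pcdhb11 to Pcdhb22 all 12 peaks were lower, without an unchanged peak between them, over 99.5 kb (37421393 to 37520881). Pcdhb12 had a lower peak of 1426 bp, Pcdhb13 of 1080, Pcdhb14 of 1322, Pcdhb15 of 1030, Pcdhb16 of 1020, Pcdhb17 of 1054, Pcdhb18 of 1140, Pcdhb19 of 1135, Pcdhb20 of 1066 and Pcdhb21 of 1063 bp, each downstream and centred 1808 to 2050 bp past the gene start. Pcdhb11 and Pcdhb22, at the borders of this run, had spanning peaks of 2546 and 2480 bp, centred 1247 and 1288 bp past the start. Only 1 unbroken run of lower peaks in the whole set was longer, with 13 peaks over 151 kb on chromosome 8 (71542532 to 71693813), and the most frequent run was a single peak, with 4833 of them. In stretches of 256 kb, the length of the Pcdhb subcluster, that began at a lower peak, the cluster reached 18 lower peaks among 22. Outside it 11 such stretches, on 3 chromosomes and partly overlapping, had as many or more, up to 20, and the median was 3.

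In the first part of the Pcdhb subcluster calls alternated more. Pcdhb2 (37296107 to 37297450), Pcdhb4 (37309044 to 37309697), Pcdhb5 (37322271 to 37322771), Pcdhb7 (37342980 to 37344327) and Pcdhb9 (37402659 to 37403284) had lower downstream peaks, of which that at Pcdhb5 had the minimum width of the set, 501 bp. Pcdhb6 had the widest lower peak of the subcluster, a spanning one of 2648 bp (37333652 to 37336299) centred 1115 bp past the start. The unchanged peaks were a start peak of 1139 bp at Pcdhb1, a spanning peak of 2504 bp at Pcdhb3 and downstream peaks of 508 bp at Pcdhb8 and 1300 bp at Pcdhb10. The Pcdhb8 and Pcdhb10 peaks, centred 2003 and 1928 bp past the start, lay over the same stretch as the lower ones.

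At the Pcdha genes most peaks ran from about the gene start well into the variable exon. Of 14 genes, 12 had a spanning peak, centred 634 to 1329 bp past the start, and 6 of these were lower and 6 unchanged. Lower were those at Pcdha1 (36930051 to 36932722), Pcdha2 (36939107 to 36941709), Pcdha5 (36960332 to 36962879), Pcdha7 (36974006 to 36975877), Pcdha9 (36997889 to 37000377) and Pcdhac2 (37143299 to 37145326). The peaks at Pcdha1 and Pcdha2, of 2672 and 2603 bp, were the widest and the third widest of the 33 lower peaks. Unchanged were Pcdha3, Pcdha4, Pcdha6, Pcdha10, Pcdha11 and Pcdha12, at 2409 to 2645 bp. The 6 lower peaks were 1872 to 2672 bp wide, which overlaps the unchanged range.

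Pcdha8 had the only downstream peak of the subcluster, a lower one of 760 bp (36993965 to 36994724) centred 1877 bp past the start. The C-type gene Pcdhac1 had a lower start peak of 1365 bp (37089642 to 37091006), its edges at −494 and 870 bp from the gene start. Past Pcdhac2, toward the constant exons, 4 unchanged peaks of 501, 1021, 2704 and 3367 bp lay away from any gene start. All 8 lower Pcdha peaks therefore lay at variable exons, where 8 of 14 peaks were lower, against 0 of 4 elsewhere in the subcluster.

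At the Pcdhg genes start peaks prevailed and most were unchanged. Of the 12 Pcdhga genes, 1 had a lower peak, against 3 of 7 Pcdhgb genes and 1 of 3 Pcdhgc genes. Pcdhga1, Pcdhga2, Pcdhga3, Pcdhga4, Pcdhga6, Pcdhga7, Pcdhga8 and Pcdhga9 each had an unchanged start peak, of 963 to 1370 bp. The only lower Pcdhga peak was a downstream one at Pcdhga12 (37767354 to 37768649, 1296 bp), centred 2421 bp past the start. Among Pcdhgb genes the lower peaks took all 3 positions. That at Pcdhgb5 was a start peak of 758 bp centred at 245 bp (37730838 to 37731595), that at Pcdhgb6 a spanning peak of 2410 bp centred at 1107 bp (37741997 to 37744406) and that at Pcdhgb8 a downstream peak of 758 bp centred at 1799 bp (37763222 to 37763979). Pcdhgb8 is protein-coding in the authors' deposited table and a transcribed pseudogene in RefSeq. Pcdhgb1 and Pcdhgb4 had unchanged spanning peaks of 2598 and 2414 bp.

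The C-type gene Pcdhgc3 had a lower start peak of 1103 bp centred 144 bp past the start (37806003 to 37807105), the last peak of the cluster. The 3 C-type genes with a peak, Pcdhac1, Pcdhac2 and Pcdhgc3, had a lower one, 2 of them start peaks. At all protocadherin genes 31 of 53 peaks were lower. As Pcdhgc4 and Pcdhgc5 had no peak, these 3 peaks are too few to set the C-type genes apart. The 2 widest peaks of the cluster were unchanged and lay over several Pcdhg genes at once. One of 5780 bp covered the starts of Pcdhgb2 and Pcdhga5. The other, of 11189 bp, began 28 bp past the start of Pcdhga10 and covered those of Pcdhgb7 and Pcdhga11, so the calls of these 5 genes are not separate.

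**Figure D3:**
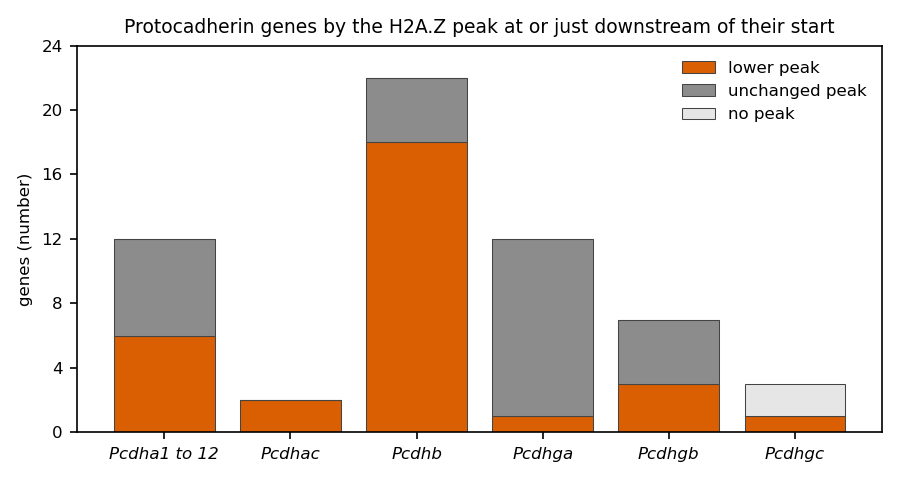
Number of clustered protocadherin genes of each type whose peak at or just downstream of the gene start was lower with doxycycline (orange), unchanged (grey) or absent from the set (pale). Lower peaks make up 18 of 22 Pcdhb genes and 1 of 12 Pcdhga genes.

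By the place of their centre, nearly all of the lower protocadherin peaks were in exons and none in promoters. The authors' deposited table placed 31 of the 33 (93.9%, 79.8 to 99.3%) in an exon, against 1444 of all 9077 lower peaks (15.9%). That deposited table placed none in a promoter, a share of up to 9.09% at 3 counts, against 1713 of all lower peaks (18.9%). All 31 were in exon 1 of their transcript in the authors' deposited table, 18 of them in the only exon of a Pcdhb gene and 13 in exon 1 of 4 of a Pcdha or Pcdhg gene. Of the other 1413 lower exon peaks in the authors' deposited table, 472 (33.4%) were in exon 1. The exon number of the protocadherin peaks follows from gene structure. A Pcdhb gene has no other exon, and the variable exon of a Pcdha or Pcdhg gene is exon 1. Any peak centred in these exons, lower or unchanged, would carry that number. The authors' placing goes by the peak's centre. By distance instead, 4 of the 33 were centred within 1 kb of a TSS, at Pcdhac1, Pcdhac2, Pcdhgb5 and Pcdhgc3. A further 27 (81.8%) were centred 1 to 2.5 kb downstream of one, a zone that the design did not hold. Of all 9073 lower peaks with a distance, these 27 included, 324 (3.57%) lay in that zone. However, 5070 of the 9073 lay over 3 kb from a TSS, against 2 of the 33, so the 2 shares are not like for like. Yet 13 of the 31 are start or spanning peaks, which cover the gene start or begin within 250 bp of it, so the exon label speaks for the centre alone. Lower and unchanged peaks together were centred 144 to 447 bp past the start for start peaks, 634 to 1329 bp for spanning and 1799 to 2421 bp for downstream peaks. A centre past the gene start was thus not particular to lower peaks. The authors placed only the listed peaks, so the exon share of the unchanged ones by their annotation is not known. The 4 unchanged Pcdhb peaks were nevertheless centred inside their genes, 235 to 2003 bp past the start.

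Widths of lower and unchanged peaks overlapped in each subcluster. Lower peaks of the cluster were 501 to 2672 bp wide with a median of 1140 bp, and unchanged ones 501 to 11189 bp with a median of 1252 bp, against medians of 1034 and 967 bp over all lower and all unchanged peaks. By subcluster the medians of lower and unchanged peaks were 2259 and 2434 bp for Pcdha, 1108 and 1220 bp for Pcdhb, and 1103 and 1212 bp for Pcdhg. Among spanning peaks they were 2518 bp (n = 10) and 2436 bp (n = 9), and among start peaks 1103 bp (n = 3) and 1050 bp (n = 9). By width class, 1 of 6 cluster peaks of 501 bp was lower, against 14.6% of the peaks of that width elsewhere, 7 of 11 of 502 to 999 bp, against 13.1%, and 15 of 26 of 1000 to 1499 bp, against 17.8%. Of the wider classes, the only peak of 1500 to 1999 bp was lower, against 19.6% elsewhere, and 9 of 20 of 2000 to 2999 bp were, against 15.5%. None of the 3 of 3000 bp or more was lower, against 677 of 6765 elsewhere.

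**Figure D4:**
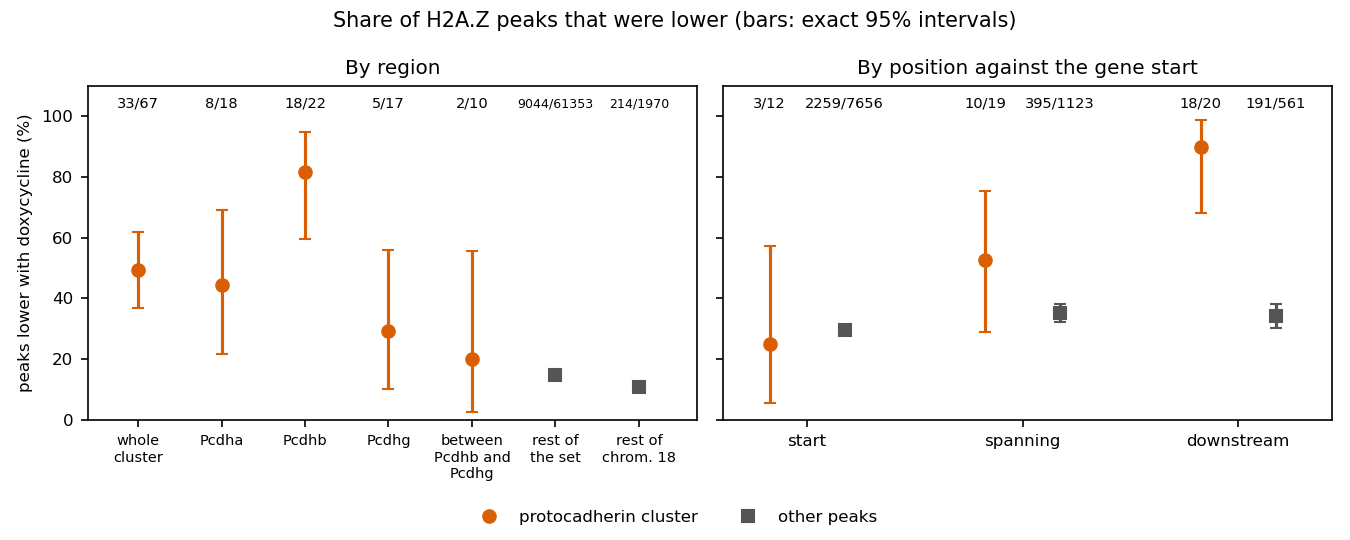
Share of H2A.Z peaks that were lower with doxycycline (%), by region on the left and by position against the gene start on the right, with exact 95% intervals and counts above each point; orange circles are protocadherin peaks and grey squares other peaks of the set. Pcdhb, at 81.8%, and downstream peaks, at 90.0%, stand above the grey squares beside them, while start peaks, at 25.0%, do not. The grey squares on the left count all peaks, at genes or away from them, and 17 of the 20 downstream protocadherin peaks are Pcdhb peaks.

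Between Pcdhb22 and Pcdhga1 (37521420 to 37661774) lay 10 peaks, of which 2 were lower. In the authors' deposited table both lie in L1 elements, L1Md_F3 and L1Md_T, inside an intron of a transcript that RefSeq gives to Gm38667, a read-through from Pcdha7 to the Pcdhg constant exons. They are the only ones of the 33 lower peaks named for a clustered protocadherin that were neither at nor within 3 kb downstream of the start of such a gene. The other 8 were unchanged, 4 of them of the minimum width. Taf7, a subunit of the general transcription factor TFIID that lies in this interval, had 1 peak and it was unchanged, and the mitochondrial carrier gene Slc25a2 beside it had none. Of the genes flanking the cluster, Hdac3, a histone deacetylase, and Vaultrc5, a vault RNA, had 1 unchanged peak each, and the formin gene Diaph1 and Zmat2 had none. Widening the bounds of the cluster by 50 kb on both sides added no peak.

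The protocadherin genes are close copies of one another, and the authors' handling of reads that map to several copies is not given in the sources used here. How far such reads enter the peak calls at neighbouring Pcdhb or Pcdha genes was not tested. No 2 neighbouring peaks of the whole set lay closer than 2001 bp, and in the cluster the smallest gap was 2264 bp, so signal at the start and in the far part of 1 variable exon would not appear as separate peaks at shorter distances.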

How the data were processed

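Per the labels, the H2A.Z CUT&Tag data come from 4 doxycycline and 4 control libraries; the other 48 of 56 libraries are not analysed here. The submitters' processing notes name GRCm38 and, with no role or version, Trimmomatic, Bowtie2, Picard, deepTools and HOMER. The peak caller and the test and threshold of both lists are not given in the sources used. HOMER annotatePeaks with mm10 placed the listed peaks, per the file headers. A peak score of 0 throughout, as the authors deposited it, went unused, while deposited positions and distances, in bp, stand as given.

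Listed peaks were matched to the peak set by exact position, counting starts from 1. Gene bounds came from RefSeq (GRCm38.p6), which held all 58 genes, and peaks were placed by their centre. Starts and strands of 17492 protein-coding genes on other chromosomes came from a RefSeq promoter table; there, peaks over several starts stayed with start or spanning peaks. Other gene lists took peaks within 1 kb of a gene. Members and lists were chosen with earlier results of these data known. By rule, every protocadherin or other listed gene with a lower peak is named, with place and distance to the TSS, singly or as a range, for protocadherin peaks within 3 kb of a TSS and the 5 widest; unchanged genes were named after their values were seen. Placing was tested on simulated peaks. The edgeR fit that the design held for counts could not be made. Tools were SciPy 1.17.1, pandas 2.3.3, numpy 2.4.6 and matplotlib 3.10.9 in Python 3.11.15.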

Additional observations from a re-analysis of the deposited data

How the results depend on the processing

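The share of lower peaks in the cluster (49.3%) was 48.5 to 58.5% over the alternatives of bounds, minimum width, peaks wholly inside, and peaks at or within 3 kb downstream of a gene start alone, and it was 33.3% without the Pcdhb subcluster; these last 2 were added after seeing the data. The background of 14.8% was 10.9% on the rest of chromosome 18 and 26.3% among peaks centred within 1 kb of a gene end. The number of genes with a lower peak centred near their start depended on the window. It was 4 within 1 kb, 3 within 500 bp, 31 within 3 kb and 13 with any overlap of the 1 kb window. Likewise 0% of lower protocadherin peaks were placed in a promoter, against 12.1% by a distance within 1 kb of the TSS and 93.9% within 3 kb. The shares by subcluster, the median widths and the shares by position stayed within their intervals in every alternative run, the lowest for downstream peaks being 78.6% (22 of 28) when no reach past the gene start was allowed, also added later. No paired analysis was possible because the files used hold no values per library, and for the same reason no replicate could be left out. Peak heights and depth are unknown, so how easily each peak could be called was not measured.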

Other observations

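The non-clustered protocadherins are scattered over the genome. All 12 genes of the list had a peak in or within 1 kb of the gene. Of their 40 peaks 10 were lower (25.0%), at 5 genes. That share lies above the 14.8% of the whole set and near the 26.3% of peaks centred within 1 kb of a gene end. Pcdh1, which lies on chromosome 18 beyond the cluster, had 3 lower peaks among 4, the widest of 5340 bp at its promoter (38207787 to 38213126), a further one in its last exon and one past its end. Pcdh12, an endothelial protocadherin near it, had 1 lower peak of 654 bp in its last exon. At Pcdh15, a hair-cell adhesion protein, 4 of 12 peaks were lower, and in the authors' deposited table all 4 lie in L1Md_A or L1Md_T elements 56633 to 421823 bp from the TSS. The lower peak at Pcdh9 also lies in an L1Md_A element in that table, and the lower peak inside Pcdh11x was assigned there to another gene. Pcdh7, Pcdh8, Pcdh10, Pcdh17, Pcdh18, Pcdh19 and Pcdh20 had no lower peak in or within 1 kb of the gene. The authors' gene names, by which the clustered members were taken, reach farther. By name, lower peaks 65165 and 281026 bp from the TSS went to Pcdh18, and ones 946751 and 960564 bp away went to Pcdh9.

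Of 16 genes for proteins that act on the cluster, 10 had a peak and 5 a lower one, with 8 lower peaks among 18, against 14.8% of the whole set and 26.3% of peaks centred within 1 kb of a gene end; 4 of the 8 lay at 1 gene, Dnmt3a. Smchd1, whose protein silences clustered genes and the inactive X, had its only peak, of 1739 bp, lower at the promoter, as had Smc3, a cohesin subunit, with 882 bp and Wapl, which unloads cohesin, with 626 bp. At Dnmt3a, a DNA methyltransferase gene, these were 4 of 7 peaks, some of them given to the overlapping gene Dnmt3aos in the authors' deposited table, and at Dnmt1 1 of 2. Rad21, Stag1, Nipbl, Dnmt3b and Pds5b had unchanged peaks alone, and Ctcf, Smc1a, Stag2, Setdb1, Rest and Pds5a had none.

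Set beside other gene families with many members, 31 of 53 peaks at protocadherin genes were lower (58.5%, 44.1 to 71.9%). The counts were 19 of 40 at Hox genes (47.5%, 31.5 to 63.9%) and 105 of 483 at Zfp genes (21.7%, 18.1 to 25.7%). At olfactory and vomeronasal receptor genes 14 of 81 were lower (17.3%, 9.78 to 27.3%). How alike the copies are in sequence was not compared between the families. The protocadherin and Hox intervals overlap. Of the whole set 14.8% were lower, and of peaks at gene starts on the other chromosomes 29.5%, so the receptor gene share lies near the first of these and the Zfp share between them. These counts take peaks from 250 bp before each gene to its end, or to 3 kb past the start for Pcdha and Pcdhg genes, and no difference between the families was tested.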
